A study of Mus musculus with 16 samples.

Results

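The comparison described here is the step from day 6 to day 9 of embryoid body differentiation in mouse embryonic stem cells that lack REST. Its members are 4 of the 16 Illumina mouse bead arrays of the series, chosen by their labels: 2 arrays of REST -/- embryoid bodies at day 9 and 2 of REST -/- embryoid bodies at day 6. The knockout groups are called KO here. The groups set beside them are 2 arrays of KO bodies at day 3, 2 of KO stem cells at day 0, and the REST +/+ arrays of the same days (control, 2 arrays each at day 9, day 6, day 3 and day 0). The study asked what REST does when embryonic stem cells enter the cardiac lineage. Both genotypes were grown without feeder cells on gelatin in medium with leukemia inhibitory factor, a cytokine that keeps them undifferentiated, and day 0 cells were taken in that state. For the later days, cells were aggregated in hanging drops without that factor and then kept in suspension, with no other treatment. The protocol goes on to plating on gelatin, and the labels leave out whether the day 9 bodies were collected before or after it.

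The labels give 1 knockout and 1 control genotype, so an effect of the deletion and a difference between cell lines cannot be told apart. They number the arrays of a group and name no separate culture for each, so the p-values below reflect only how far these arrays differ, and that spread may be technical.

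REST is a zinc-finger repressor. It binds the RE1 element of many neuronal genes and brings histone-modifying enzymes to them. Embryoid bodies form the germ layers in a loosely ordered way: after gastrulation-like steps they make yolk sac-like endoderm, primitive blood, vessels and beating heart muscle, and later fibroblast-like cells that lay down matrix, and macrophages. A body is a mixture, so that in bulk RNA fewer cells of a type and less RNA per cell cannot be told apart.

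The 4 KO arrays detected 9045 and 8567 probes at day 9, against 8033 and 8814 probes at day 6, of 25697 on the array. The correlation over all genes tested was 0.989 between the day 9 arrays, 0.991 between the day 6 arrays and 0.924 to 0.934 between days. Levels below are log2 normalized intensity, in which an offset of 16 keeps dim probes near 5.5, and each gene is read from its brightest kept probe. A gene is called not detected on a day when all its probes, kept or not, missed the detection p-value of 0.01 on both arrays of that day. Then a fold is given as "at least", against the lowest level that counted as detected there. The Rest probe itself missed that threshold on all 16 arrays, with detection p-values from 0.0276 to 0.449, so it cannot check the genotype labels. Its intensity was 10.0 and 21.5 in KO day 9 bodies, against 14.3 and 1.26 in KO day 6 bodies. Of markers of the cell types that embryoid bodies can hold, the blood markers Hbb-bh1, Hba-x and Hbb-y were detected on all 4 KO arrays, and so were the vessel markers Kdr and Pecam1, the heart markers Actc1, Myl7, Myl4 and Hand2, the endoderm markers Sox17 and Ttr, and the ectoderm marker Nes. Alb and Foxa2 (endoderm), Pax6, Fabp7 and Neurog2 (ectoderm), Cdh5 (vessel), Pou5f1 (stem cells) and the trophoblast markers Tpbpa and Krt7 were detected on none of them. Unlike Pou5f1, the stem cell markers Nanog, Dppa5a and Tdgf1 were detected on all 4 KO arrays, and Zfp42 on both at day 9 and neither at day 6. The fibroblast markers Col1a1 and Postn were detected on all 4 as well.

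KO bodies changed widely over these 3 days. Most tested genes of fibroblast matrix, and of a list of white blood cells and megakaryocytes, were higher at day 9. Most tested genes of primitive red cells and vessels were lower. Of 7505 genes tested, 2643 (35.2%) passed an adjusted p of 0.05 in limma's moderated test with Benjamini-Hochberg adjustment. Of these, 1329 (17.7% of those tested) were higher at day 9 and 1314 (17.5%) were lower. The counts of calls in the lists below are to be read beside these shares. Of the higher genes 323 were detected at day 9 and not at day 6, and of the lower genes 183 at day 6 and not at day 9. A further 50 called genes were detected on neither day. Among the called genes the change was over 2-fold for 441 higher and 252 lower genes on the log2 scale with its offset, which understates folds of dim genes, and over 4-fold for 98 higher and 45 lower genes. The step from day 3 to day 6 in the same cells had 3985 called genes (53.1%), and it shares the day 6 arrays with the step described here. The even split rests on quantile normalization. With each array centred on its median instead, the median change of all genes was -0.21 rather than -0.019, and 882 of 3099 called genes (28.5%) were higher, so changes near that shift have no settled direction. For genes detected on a single array of a day, that array's and the other array's values are both used, as for Afp, Cbln4, Laptm5, Pcolce, P4ha1 and Fgf8 at day 6, and Hapln1, Nfe2, Pkp2 and Sall4 at day 9. Without KO day 6 replicate 1 the count of called genes was 1705, and without KO day 9 replicate 2 it was 1730. Of the genes named below and called, 37 lost the call both without background correction and with the authors' normalized values: Actg2, Alas2, Apoa1, Apoa2, Apom, Celsr3, Col3a1, Col4a2, Dcn, Foxf2, Frzb, Gdap1, Hand1, Hba-a1, Hba-x, Hbb-y, Hnf4a, Hoxa10, Hoxb4, Hoxd10, Ina, Kdr, Nepn, Nexn, Nfe2, P4ha1, Pdgfra, Postn, Resp18, Rgn, Scg2, Sez6l2, Tnc, Ttr, Twist2, Vgf and Wnt2.

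Among the largest rises were those of a plasma protein and a chemokine. Afp (alpha-fetoprotein, the main plasma protein of the embryo) was at 12.78 and 12.77 in day 9 bodies, against 6.03 and 6.53 in day 6 bodies, a log2 change of 6.50 ± 0.25 (SE, adjusted p = 4.76e-10). Pf4, a chemokine of megakaryocytes and embryonic macrophages, was at 11.70 and 11.61 in day 9 bodies, against 5.81 and 5.83 in day 6 bodies, where it was not detected. Its rise was at least 32.0-fold (adjusted p = 3.29e-09). The days did not overlap for either gene. Fmod, a proteoglycan that binds collagen fibrils, reached 11.17 and 11.14 at day 9, against 5.76 and 5.47 and no detection at day 6, at least 22.6-fold higher. A second kept probe of Fmod changed by 1.53 on the log2 scale, against 5.54 for the probe given. Cbln4, a secreted synaptic protein, stood at 10.99 and 11.09 at day 9, against 6.60 and 6.72 at day 6 (log2 change 4.38 ± 0.17). The other rises among the 15 largest included matrix genes (Col6a1, Dcn, Col13a1, Col16a1) and macrophage or inflammatory genes (Ccl4, Il1r1, Irf8, Adgre1). The rest were transcription factors of mesenchyme: Msc (musculin) rose at least 7.11-fold, Hic1 at least 5.68-fold and Wt1, which marks the outer layer of the developing heart and other organ linings, at least 7.07-fold.

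Among the largest falls was that of a globin. Hbb-bh1, an embryonic beta-like globin, was at 10.98 and 11.07 in day 9 bodies, against 14.42 and 14.91 in day 6 bodies, a log2 change of -3.64 ± 0.19 (adjusted p = 8.26e-09). Tdo2, which starts tryptophan breakdown in liver, was at 5.98 and 5.99 and not detected at day 9, against 9.56 and 9.59 at day 6, at least 8.26-fold lower. Cfc1, the nodal co-receptor cryptic, was at 6.86 and 6.80 at day 9, against 10.15 and 9.86 at day 6. In all 3 genes both day 9 arrays lay far below both day 6 arrays. Slc39a8, a zinc importer, fell by 3.09 on the log2 scale and Hapln1, which links hyaluronan to its proteoglycans, by 3.02. A second kept probe of Slc39a8 changed by -1.74. Tek, the angiopoietin receptor of endothelium, was at least 5.08-fold lower, Greb1 at least 5.44-fold and Cited4, a coactivator, at least 4.55-fold. The kept probes of Greb1 changed by -2.81, -2.68 and -0.75 on the log2 scale.

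**Figure D1:**
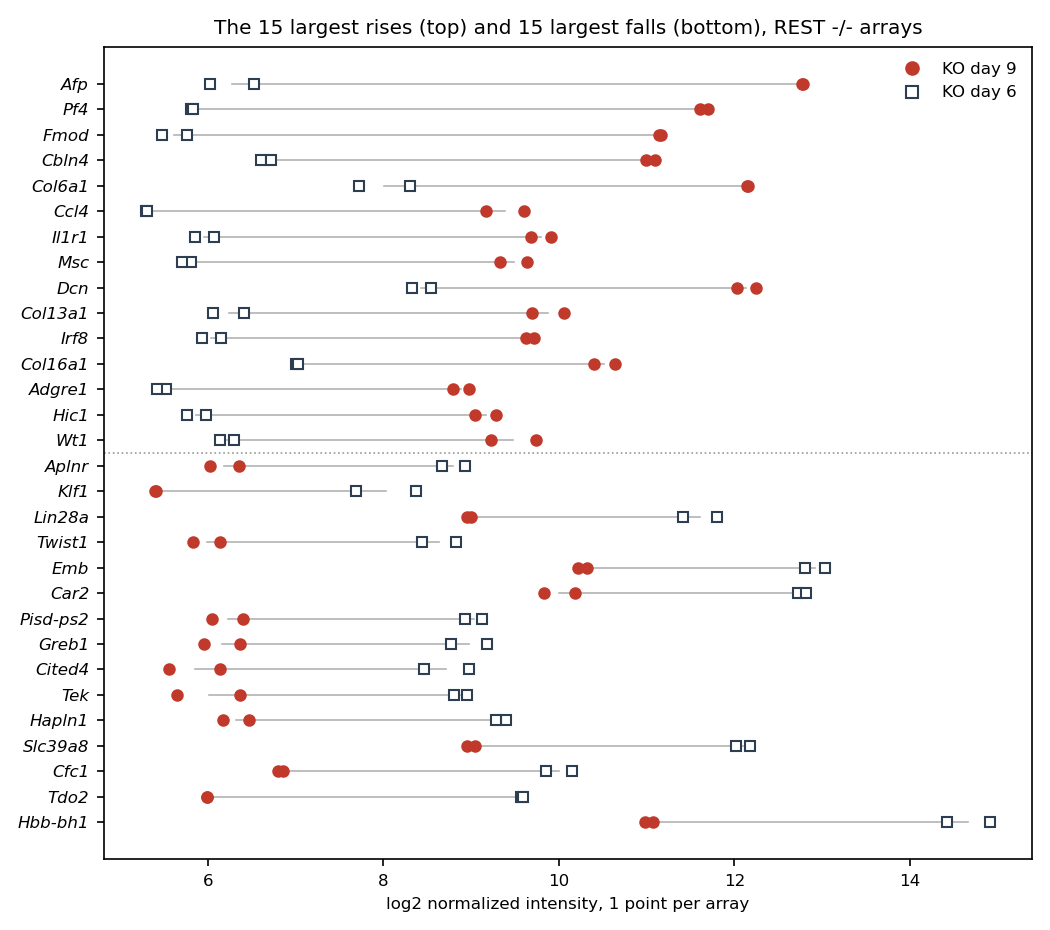
Log2 normalized intensity (x axis) of the 15 called genes with the largest rise and the 15 with the largest fall, one row per gene, with a filled point for each KO day 9 array and an open square for each KO day 6 array. The grey line joins the group means. In every row the arrays of a day lie closer to each other than to the other day, and Afp spans the widest gap, with 12.78 and 12.77 at day 9, against 6.03 and 6.53 at day 6.

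Genes of fibrillar collagen and loose connective tissue matrix were mostly higher at day 9. Of 30 tested (of 36 on the array), 24 were higher at day 9, 1 was lower and 5 did not pass the test, with a median log2 change of 1.17 (1.11 with undetected genes at their bound), beside -0.019 (0 at the bound) for all genes tested. Col1a2, a chain of type I collagen, was at 14.91 and 14.77 in day 9 bodies, against 11.91 and 11.69 in day 6 bodies. Col1a1, its partner chain, was at 10.08 and 9.99 at day 9, against 7.78 and 6.65 at day 6. The day 6 arrays differed by 1.13 for Col1a1, which was less than the gap between the days. The log2 changes were 3.04 ± 0.24 (adjusted p = 3.51e-07) for Col1a2 and 2.82 ± 0.35 (adjusted p = 2.59e-05) for Col1a1. Col3a1, the type III chain, was already at 14.88 and 14.82 at day 6, and stood at 15.98 and 15.98 at day 9.

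Type VI collagen, which forms beaded filaments around cells, moved with type I. Col6a1 was at 12.14 and 12.16 at day 9, against 7.72 and 8.30 at day 6, and Col6a2 was at 8.63 and 8.70 at day 9, against 5.75 and 5.69 and no detection at day 6. The small leucine-rich proteoglycans that space collagen fibrils rose too. Dcn (decorin) was at 12.03 and 12.24 at day 9, against 8.32 and 8.54 at day 6. Lum (lumican) had a log2 change of 3.11 ± 0.33 and Bgn (biglycan) was at least 3.67-fold higher. Enzymes that process collagen rose with their substrate: P4ha2, a prolyl hydroxylase, changed by 1.95 ± 0.18, Pcolce, which helps trim procollagen, by 2.43 ± 0.26, and Serpinh1, the collagen chaperone, by 0.98 ± 0.16 on the log2 scale. Postn (periostin) was at 9.89 and 9.85 at day 9, against 8.03 and 8.37 at day 6, and the groups did not overlap. Tnc (tenascin C) was the member that fell, at least 1.31-fold.

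Basement membrane genes divided. Of 17 tested, 5 were higher and 4 were lower, with a median change of 0.085, which turned to -0.12 under median centring. Col4a5 was at 7.87 and 7.91 at day 9, against 6.03 and 5.97 and no detection at day 6, at least 2.34-fold higher. Nid2 (nidogen 2) changed by 0.93 ± 0.20. The main type IV collagen chains ran the other way: Col4a1 was at 8.40 and 8.27 at day 9, against 9.86 and 9.36 at day 6, and Col4a2 was at 7.37 and 7.70 at day 9, against 8.84 and 8.61 at day 6. Lamb1, a laminin chain, changed by -0.79 ± 0.19. Without KO day 9 replicate 2 the counts were 4 higher and 2 lower, and Lamb1 lost its call at a change of -0.54.

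Of 10 smooth muscle contractile genes, 1 was higher and 5 were lower (median -0.28). Acta2, smooth muscle actin, was at 11.57 and 11.47 at day 9, against 12.64 and 12.79 at day 6, and Csrp1, a muscle LIM protein, at 10.17 and 10.40 at day 9, against 11.65 and 11.78 at day 6. The days were well apart in both. Cnn2 (calponin 2) changed by -1.04 ± 0.15 and Vcl (vinculin), which anchors actin at adhesions, by -0.77 ± 0.15. Actg2, the enteric smooth muscle actin, was at least 1.70-fold higher, a call that was lost without KO day 6 replicate 1 or without KO day 9 replicate 1 (adjusted p = 0.083 and 0.061).

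Most tested genes of the white blood cell list rose from low or undetected levels. The tested members include Pf4, Gp9 and Itga2b, which are genes of megakaryocytes. Of 11 tested, 8 were higher, 1 was lower and 2 did not pass the test, with a median of 1.02 (0.57 with undetected genes at their bound). Of the 8, 6 were not detected at day 6. The median was 1.77 without background correction. Among genes detected in at least 2 groups, 5 were higher and 1 lower. Coro1a, an actin regulator of blood cells, was at 8.65 and 8.89 in day 9 bodies, against 5.92 and 6.41 in day 6 bodies, at least 4.32-fold higher. Laptm5, a lysosomal protein of blood cells, was at 9.32 and 9.34 at day 9, against 6.66 and 7.15 at day 6 (log2 change 2.43 ± 0.18). Tyrobp, the adaptor of microglial and macrophage receptors, was at 7.03 and 7.95 at day 9, against 5.70 and 5.66 at day 6 and no detection at day 6, at least 1.78-fold higher, with replicate 2 the higher of the day 9 arrays. Ptprc, the pan-leukocyte marker CD45, was detected on 1 of 2 KO day 9 arrays and on neither KO day 6 array. Myb, a transcription factor of definitive blood progenitors, was the member that fell, at least 1.71-fold.

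Other genes of macrophages were among the largest rises. Adgre1, which encodes the macrophage antigen F4/80, was at 8.79 and 8.97 at day 9, against 5.52 and 5.41 at day 6, at least 4.67-fold higher. A second kept probe of Adgre1 changed by 1.29 on the log2 scale, against 3.41 for the probe given. Irf8, a transcription factor that macrophages need, was at 9.62 and 9.72 at day 9, against 5.93 and 6.15 at day 6, at least 8.08-fold higher. Ccl4, a chemokine made by macrophages, was at 9.16 and 9.60 at day 9, against 5.29 and 5.30 at day 6, at least 6.61-fold higher. None of the 3 was detected at day 6, and all were detected at day 9. Spi1, the macrophage factor PU.1, was at 9.03 and 9.12 at day 9, against 8.89 and 8.98 at day 6 (adjusted p = 0.501).

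Interferon and antigen presentation genes had 6 higher and 1 lower of 14 tested (median 0.42). Ifi27, an interferon-induced mitochondrial protein, was at 8.67 and 8.99 at day 9, against 5.69 and 5.59 at day 6, at least 4.52-fold higher. Ifit2 was at least 2.70-fold higher. B2m, the light chain of class I antigen presentation, was at 9.35 and 9.50 at day 9, against 8.30 and 8.66 at day 6. The class I heavy chain H2-K1 was at 9.55 and 9.43 at day 9, against 9.84 and 9.82 at day 6, a small fall whose call was lost when any of the 4 KO arrays was left out (changes of -0.40 to -0.28).

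The genes of yolk sac and liver-type endoderm moved in both directions. Of 15 genes tested in a list of plasma proteins and liver enzymes (of 31 on the array), 9 were higher, 3 were lower and 3 did not pass the test, with a median of 0.47 (0 with undetected genes at their bound). Of the 9, only Afp, Ambp, Itih2 and Serping1 were detected, and the other 5 (Alb, Trf, Serpina1b, Serpinc1 and Fga) passed the test with no detected probe on either day, so that they have no measured rise. All of these 5 but Alb also lost the call without KO day 9 replicate 2. The count without KO day 9 replicate 2 was 5 higher and 3 lower, and it was the same among genes detected in at least 2 groups. The promoters of 3 of these genes are printed because Afp rose alike in both genotypes whereas Alb and Fgb were detected as rising in control bodies and not in KO bodies, as described further on. They are from RefSeq, build GRCm38.p6, 5′ to 3′ on the strand of the gene, 250 bases before to 50 after the annotated start. Capitals mark matches to GTTAAT, 1 free base and ATTAAC, a palindromic form of the site of HNF1, a liver transcription factor, with up to 2 mismatches. Both strands were searched, and the motif was chosen after the values of these genes were known.
Afp, chr5:90490464-90490763, plus strand: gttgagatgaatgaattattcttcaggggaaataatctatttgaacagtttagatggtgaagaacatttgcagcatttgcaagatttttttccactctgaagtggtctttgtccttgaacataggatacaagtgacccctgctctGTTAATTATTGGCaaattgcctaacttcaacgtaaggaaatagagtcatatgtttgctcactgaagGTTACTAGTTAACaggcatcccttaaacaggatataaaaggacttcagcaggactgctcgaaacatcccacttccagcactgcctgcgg
Alb, chr5:90460620-90460919, plus strand: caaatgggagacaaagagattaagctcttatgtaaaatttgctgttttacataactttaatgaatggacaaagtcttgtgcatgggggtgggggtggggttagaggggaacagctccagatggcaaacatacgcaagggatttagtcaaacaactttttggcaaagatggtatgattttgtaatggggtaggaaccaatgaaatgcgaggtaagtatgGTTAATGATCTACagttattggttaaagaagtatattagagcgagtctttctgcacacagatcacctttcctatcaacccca
Fgb, chr3:83049814-83050113, minus strand: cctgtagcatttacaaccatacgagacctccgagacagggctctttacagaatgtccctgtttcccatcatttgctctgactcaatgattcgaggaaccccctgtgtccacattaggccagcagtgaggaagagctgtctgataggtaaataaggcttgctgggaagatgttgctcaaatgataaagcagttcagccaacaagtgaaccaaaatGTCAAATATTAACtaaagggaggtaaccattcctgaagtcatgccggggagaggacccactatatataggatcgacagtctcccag
The Afp window holds 2 matches, 105 and 39 bases before the start, the Alb window 1 match 32 bases before it, and the Fgb window 1 match 36 bases before it. Of 32851 promoters of this length, 446 (1.36%) hold such a match. Of the 15 plasma protein genes tested, 11 are in the promoter table and 4 of them (Alb, Afp, Fga, Fgb) hold one. The 1.36% is a share of promoters, whereas the 4 are genes with a match in any of their promoters. The 2 shares are thus of unlike units. A match describes letters and is no evidence of binding.

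Afp had the largest fitted rise of all genes tested, and the other detected members of the list changed less. The list's median was 1.54 without background correction, against 0.47 as reported, and 0.053 without the filter on dim probes. Ambp, the precursor of alpha-1-microglobulin, was at 7.31 and 7.37 at day 9, against 5.54 and 5.59 and no detection at day 6, at least 1.60-fold higher. Alb (albumin) was at 6.15 and 6.04 at day 9, against 5.43 and 5.38 at day 6, and was detected on no KO array. Fgb (fibrinogen beta) was at 7.44 and 7.51 at day 9, against 7.17 and 7.16 at day 6 (adjusted p = 0.147). Ttr (transthyretin), an abundant product of yolk sac endoderm, was at 11.30 and 11.27 at day 9, against 13.27 and 13.02 at day 6, a log2 change of -1.85 ± 0.33 (adjusted p = 0.000583). Rbp4, the retinol carrier that travels with it, was at 11.50 and 11.92 at day 9, against 12.21 and 12.23 at day 6, and lost its call in the 3 fits without KO day 6 replicate 1, KO day 6 replicate 2 or KO day 9 replicate 1 (changes of -0.52 to -0.30). Of 5 apolipoprotein genes, 2 were higher and 1 was lower (median 0.055, and 0 at the bound), and without background correction none was called: Apoa2 and Apoa1 rose from below detection, at least 1.07-fold and at least 1.05-fold, and Apom, the carrier of sphingosine-1-phosphate, changed by -1.67 ± 0.23. Apoa1 lost its call without KO day 6 replicate 2 or without KO day 9 replicate 2 (adjusted p = 0.144 and 0.309).

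Other endodermal genes had more lower than higher calls. Of 10 endoderm transcription factors, 2 were higher and 4 lower (median -0.22), and without background correction 1 was higher and 2 lower. Sox17, an early endoderm and endothelial factor, was at 7.80 and 7.67 at day 9, against 10.06 and 9.76 at day 6. Hhex, which acts in early liver and endothelium, was at 7.69 and 7.73 at day 9, against 9.36 and 9.47 at day 6. The log2 changes were -2.18 ± 0.28 (adjusted p = 3.96e-05) and -1.70 ± 0.18 (adjusted p = 6.48e-06). Gata6, a factor of endoderm and heart, was at 13.83 and 13.69 at day 9, against 12.43 and 12.47 at day 6, a call that was lost when any of the 4 KO arrays was left out (changes of 1.24 to 1.38). Of 11 genes of the absorptive visceral endoderm, 0 were higher and 6 were lower (median -0.64). Spink1, a protease inhibitor, was at 12.11 and 12.41 at day 9, against 14.61 and 14.23 at day 6. Emb (embigin) was at 10.22 and 10.32 at day 9, against 13.04 and 12.81 at day 6, and Slc39a8 at 8.96 and 9.05 at day 9, against 12.02 and 12.17 at day 6. The days did not overlap in any of the 3.

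Genes of simple epithelium had more lower than higher calls. Of 13 epithelial and junction genes, 1 was higher and 6 were lower (median -0.88, and -0.59 at the bound), and under median centring 10 were lower. Krt8 and Krt18, the keratin pair of simple epithelia, had log2 changes of -1.32 ± 0.16 and -1.95 ± 0.31. Cldn6, a tight junction protein of early epithelia, was at 9.07 and 9.08 at day 9, against 10.22 and 10.16 at day 6. Pkp2 (plakophilin 2), a desmosomal plaque protein, was at 6.68 and 6.17 at day 9, against 8.81 and 8.83 at day 6. Cdh1 (E-cadherin) changed by -1.36 ± 0.35, a call lost without KO day 6 replicate 1 or KO day 9 replicate 2 (changes of -1.27 and -1.21). Lgals3 (galectin 3), which macrophages also express, was the member that rose, at least 2.57-fold.

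Embryonic red cell genes were mostly lower. Of 18 tested, 1 was higher, 13 were lower and 4 did not pass the test (median -1.32). Without background correction 7 were lower, and 9 were without KO day 6 replicate 2, KO day 9 replicate 1 or KO day 9 replicate 2. Without the filter on dim probes the median was -0.73. The embryonic alpha-like globin Hba-x was at 9.34 and 9.43 in day 9 bodies, against 11.71 and 12.20 in day 6 bodies. The embryonic beta-like globin Hbb-y was at 11.02 and 11.04 at day 9, against 11.96 and 12.74 at day 6, and Hba-a1, the alpha globin that stays on in adult blood, at 11.73 and 11.95 at day 9, against 12.89 and 13.45 at day 6. Replicate 2 was the higher of the day 6 arrays in all 4 globins named, by less than the gap between the days. The log2 changes were -2.58 ± 0.36 for Hba-x, -1.31 ± 0.36 for Hbb-y and -1.33 ± 0.27 for Hba-a1. Hbb-y lost its call without KO day 6 replicate 2 (-0.92), KO day 9 replicate 1 (-1.30) or KO day 9 replicate 2 (-1.33). Hbb-b2, an adult beta globin, was the member that rose, with 6.01 and 6.76 at day 9, against 5.56 and 5.47 and no detection at day 6, a call lost without KO day 9 replicate 2 (adjusted p = 0.12). Near-identical globin copies may share a probe, so the assignment to copies is uncertain.

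The enzymes and regulators of red cells fell as well. Alas2, the first enzyme of heme synthesis in red cells, was at least 3.65-fold lower. Klf1, the red cell transcription factor, was at 5.40 and 5.41 and not detected at day 9, against 7.69 and 8.37 at day 6, at least 2.82-fold lower. Nfe2 and Lmo2, factors of blood progenitors, had log2 changes of -1.75 ± 0.24 and -1.79 ± 0.17. Car2 (carbonic anhydrase 2) was at 9.83 and 10.18 at day 9, against 12.72 and 12.82 at day 6. The day 9 level of Hbb-bh1 was far above its level at day 3, where it was at 5.59 and 5.74.

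Vessel and endocardial genes were mostly lower. Of 16 tested, 1 was higher, 13 were lower and 2 did not pass the test (median -1.29, and -0.93 at the bound), and without background correction 9 were lower. Plvap, which forms the diaphragms of endothelial pores, was at 7.78 and 7.56 in day 9 bodies, against 9.61 and 9.86 in day 6 bodies. Esam, an endothelial adhesion molecule, was at 7.09 and 7.17 at day 9, against 9.43 and 9.46 at day 6. The changes were -2.06 ± 0.17 (adjusted p = 7.11e-07) and -2.32 ± 0.17 (adjusted p = 1.87e-07). Tek was at 6.36 and 5.65 at day 9, against 8.80 and 8.95 at day 6. Aplnr, the apelin receptor of early mesoderm and vessels, was at least 4.81-fold lower and Flt1, a receptor for vascular endothelial growth factor, at least 3.17-fold. Pecam1 (CD31) was at 7.15 and 7.13 at day 9, against 8.56 and 8.36 at day 6. Etv2, which starts blood and vessel development, was at least 1.64-fold lower. Kdr, the receptor that marks endothelium and its mesodermal precursors, was the member that rose, with 12.22 and 11.74 at day 9, against 11.49 and 11.13 at day 6. Its call was lost without KO day 6 replicate 2 or KO day 9 replicate 1 (changes of 0.49 and 0.43) and under median centring.

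**Figure D2:**
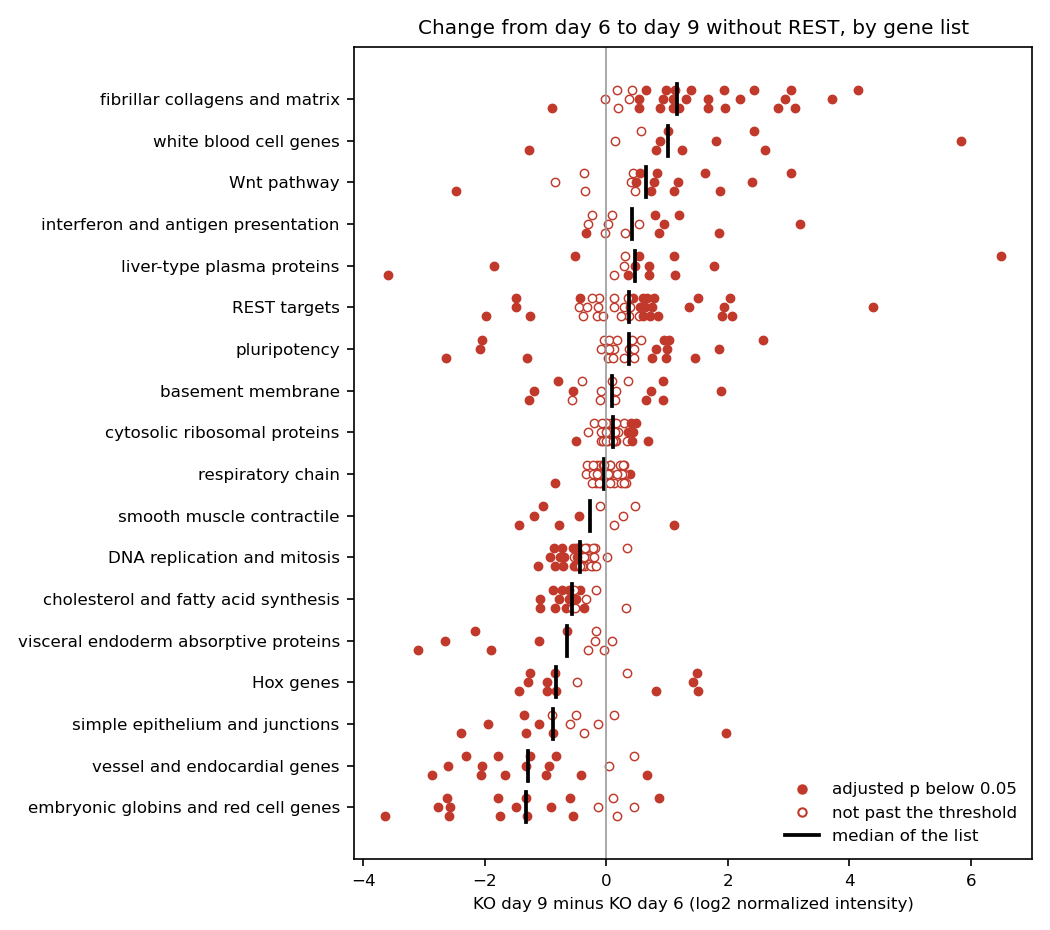
Log2 change from day 6 to day 9 in KO bodies (x axis, KO day 9 minus KO day 6) of each tested gene in 18 lists, filled where the adjusted p was below 0.05, with a black bar at the list's median and points spread vertically for legibility. Points of genes not detected on a day show the fitted value, which is no bound. Medians run from 1.17 for fibrillar collagens and matrix to -1.32 for embryonic globins and red cell genes, and the respiratory chain lies close to 0.

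The heart genes were split between replicates at day 6. Of 25 contractile genes on the array 9 were tested, of which 2 were higher, 2 were lower and 5 did not pass (median 0.67, and 0 at the bound). Myl7, the atrial light chain, was at 9.94 and 9.88 in day 9 bodies, against 7.50 and 9.77 in day 6 bodies. Myl4, another atrial light chain, was at 9.52 and 9.58 at day 9, against 7.12 and 9.33 at day 6, and Actc1, cardiac actin, was at 10.59 and 10.48 at day 9, against 8.53 and 10.25 at day 6. On the day 6 arrays these 3 genes had the 3 largest gaps between replicates of all 7505 genes, 2.27 for Myl7, 2.21 for Myl4 and 1.72 for Actc1, with replicate 2 close to the day 9 level and replicate 1 far below it. None of the 3 passed the test (adjusted p = 0.15, 0.0999 and 0.141), and all 3 passed it when KO day 6 replicate 2 was left out, which gave 5 higher and 2 lower for the list. Without background correction 1 was higher and 1 lower. The control day 6 arrays were split too, with 9.85 and 7.24 for Myl7, but there replicate 1 was the higher. What set these day 6 arrays apart was not tested.

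Genes without that split gave clearer values. Myl2, the ventricular light chain, was at 7.86 and 7.70 at day 9, against 5.23 and 5.66 and no detection at day 6, at least 2.17-fold higher (adjusted p = 3.70e-07). Tpm1, a tropomyosin of many muscle and non-muscle cells, was at 10.75 and 10.89 at day 9, against 11.90 and 12.10 at day 6, a change of -1.18 ± 0.12 (adjusted p = 6.33e-06). Nexn, an actin-binding protein of the Z disc, was at 8.02 and 7.94 at day 9, against 8.71 and 8.73 at day 6. Of 17 regulators of heart and lateral mesoderm, 5 were higher and 5 lower (median -0.21), with 3 higher and 4 lower without KO day 6 replicate 1, 3 higher and 6 lower without KO day 9 replicate 1, and 3 higher and 3 lower without background correction. Meis1 was at 11.75 and 11.48 at day 9, against 10.25 and 10.15 at day 6, and Twist2, a factor of dermal and other mesenchyme, at 10.60 and 11.02 at day 9, against 9.48 and 9.59 at day 6. Twist1, its relative of early mesenchyme and cushion cells, was at 6.14 and 5.83 and not detected at day 9, against 8.82 and 8.44 at day 6, at least 4.29-fold lower. Irx3, a patterning factor, was at 7.00 and 7.19 at day 9, against 8.35 and 8.62 at day 6. Hand1 was detected on both day 6 arrays and on neither day 9 array, and Hand2 was at 7.78 and 7.90 at day 9, against 8.64 and 8.14 at day 6 (adjusted p = 0.0608). Hand2 was called lower without KO day 6 replicate 2 (-0.80, adjusted p = 0.032), under median centring, with an offset of 50 and in a fit of the 8 KO arrays alone (adjusted p = 0.0064, 0.032 and 0.042).

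**Figure D3:**
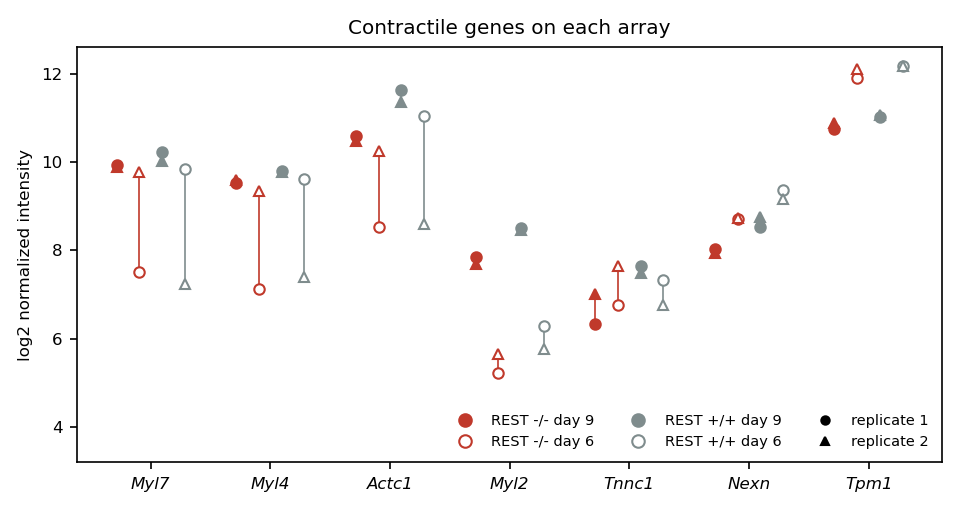
Log2 normalized intensity (y axis) of 7 contractile genes on each array, with REST -/- day 9, REST -/- day 6, REST +/+ day 9 and REST +/+ day 6 from left to right within each gene, circles for replicate 1 and triangles for replicate 2, joined by a line within a group. Myl7, Myl4 and Actc1 differ by 1.72 to 2.27 between the KO day 6 replicates, with replicate 2 high in KO and replicate 1 high in control, while Tpm1 and Nexn show no such split.

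Among neuronal genes listed as REST targets, more were higher than lower at day 9. The list was drawn up from general knowledge of RE1 genes, with earlier results of these data known, so its counts are no independent support. Of 38 tested (of 62 on the array), 17 were higher, 5 were lower and 16 did not pass the test, with a median of 0.38 (0.36 at the bound), beside 17.7% higher and 17.5% lower among all genes. Without background correction 7 were higher and 2 lower, and under median centring 12 were higher and 7 lower, with a median of 0.16. Without the filter on dim probes the median was 0.19. Cbln4 led the list, as given above. Vstm2l, a secreted neuronal protein, was at 12.64 and 12.71 in day 9 bodies, against 10.49 and 10.77 in day 6 bodies. Resp18, a protein of secretory granules, was at 9.42 and 9.81 at day 9, against 7.63 and 7.71 at day 6. Both were already detected at day 6, and their log2 changes were 2.04 ± 0.20 and 1.94 ± 0.16. Dner, a neuronal Notch ligand, was at 8.00 and 7.79 at day 9, against 5.74 and 5.93 and no detection at day 6, at least 2.36-fold higher. Scg2 (secretogranin 2), a granule protein, was at 7.01 and 6.97 at day 9, against 5.64 and 5.61 and no detection at day 6. The Dner promoter is shown because Dner rose and its window holds an RE1-like match. It is again from RefSeq, build GRCm38.p6, with the match in capitals.
Dner, chr1:84696172-84696471, minus strand: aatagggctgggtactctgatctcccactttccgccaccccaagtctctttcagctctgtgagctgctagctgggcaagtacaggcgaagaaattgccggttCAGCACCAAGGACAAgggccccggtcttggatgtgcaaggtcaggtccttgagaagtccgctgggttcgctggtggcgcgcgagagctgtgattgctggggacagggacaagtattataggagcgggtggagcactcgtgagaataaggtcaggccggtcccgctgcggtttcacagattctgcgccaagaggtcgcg
The letters searched were CAGCACC, 2 free bases and GGACAG, the core of RE1, on both strands with up to 2 mismatches, a motif chosen with the values known. The Dner match has 1 mismatch and lies 148 bases before the start. Such a match is present in 632 of 32851 promoters (1.92%) and in 3 of the 24 listed genes that are in the promoter table (Syn1, Celsr3 and Dner). Here too the first share counts promoters and the other counts genes with a match in any of their promoters.

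Other targets changed less, or fell. Syt11, a synaptotagmin, changed by 1.51 ± 0.22, Gdap1, a mitochondrial outer membrane protein of neurons, by 0.75 ± 0.14, and Syp (synaptophysin), a synaptic vesicle protein, by 0.72 ± 0.17 on the log2 scale. Vgf, a neuropeptide precursor, was at 5.88 and 5.84 and not detected at day 9, against 8.11 and 7.58 at day 6, at least 2.49-fold lower. The neurofilament genes Nefm and Ina fell: Nefm was at 7.60 and 7.56 at day 9, against 9.16 and 8.97 at day 6, and Ina at 7.45 and 7.60 at day 9, against 8.68 and 8.87 at day 6. Bex1 was at 11.97 and 11.88 at day 9, against 13.51 and 13.33 at day 6. Stmn2, a tubulin-binding protein of growing axons, was at 9.65 and 9.89 at day 9, against 9.56 and 9.48 at day 6 (adjusted p = 0.244).

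Of 15 neural progenitor and proneural genes tested, 3 were higher and 2 lower, with a median of 0.055, which was -0.16 under median centring. Their share of calls was 33.3%, near the 35.2% of all genes, and 5 of the 15 were detected on neither day. Without KO day 9 replicate 2 the counts were 5 higher and 1 lower, and without background correction or without KO day 6 replicate 2 they were 2 higher and 1 lower. Nes (nestin), an intermediate filament of progenitors and endothelium, was at 8.01 and 7.56 at day 9, against 9.07 and 9.13 at day 6. Map2, a dendritic microtubule protein, was at 7.96 and 8.05 at day 9, against 6.61 and 6.39 and no detection at day 6, at least 2.54-fold higher. Pax6 and Fabp7 were not detected on either day.

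Some pluripotency genes were higher again at day 9. Of 27 tested, 9 were higher, 4 were lower and 14 did not pass, with a median of 0.37 (0 at the bound). Of the 9, 6 were not detected at day 6, and 7 of the 27 were detected on neither day. In control bodies 6 of the list were higher and 4 lower. Dppa5a was at 11.06 and 10.65 in day 9 bodies, against 8.31 and 8.25 in day 6 bodies. The kept probes of Dppa5a changed by 2.57, 2.53 and 0.93 on the log2 scale. Nanog, a core stem cell factor, was at 10.15 and 9.59 at day 9, against 8.25 and 7.78 at day 6. Both stayed below their stem cell level, since the KO day 0 arrays held 14.10 and 14.06 for Dppa5a and 13.72 and 13.79 for Nanog. Klf5 changed by 1.46 ± 0.17, and Zfp42 (Rex1) was at 7.71 and 7.03 at day 9, against 6.48 and 6.27 and no detection at day 6, a call lost without KO day 9 replicate 1 (adjusted p = 0.072). Pou5f1 (Oct4), which defines the stem cell state, was detected on no KO array of either day, with 6.34 and 6.07 at day 9, against 6.26 and 6.07 at day 6. The day 9 replicates were unequal: 25 of the 27 genes were higher on replicate 1, with a median gap of 0.39, beside 49.5% of all genes and a median gap of -0.002. On the day 6 arrays 19 of 27 were higher on replicate 1, with a median gap of 0.19. Without KO day 9 replicate 1 the list had 5 higher and 4 lower genes. Other members of the list fell: Lin28a, an RNA-binding protein of early cells, was at 8.99 and 8.95 at day 9, against 11.80 and 11.41 at day 6, Sall4 changed by -2.09 ± 0.28 and Dnmt3b, a de novo DNA methyltransferase, by -2.05 ± 0.31. A second kept probe of Dnmt3b changed by -0.18 (unadjusted p = 0.41 in limma's moderated test), so its probes disagreed.

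Primitive streak and early mesoderm genes were little detected. Of 14 tested, 6 were detected on neither day, 1 was higher and 5 were lower (median -0.25, and 0 at the bound), and without background correction 0 were higher and 2 lower. Frzb, a secreted Wnt antagonist, was at 7.31 and 6.83 at day 9, against 9.60 and 9.49 at day 6. Evx1, a posterior streak factor, was at least 3.02-fold lower and Fgf8, a streak growth factor, at least 1.19-fold. Pdgfra, a growth factor receptor of paraxial and later mesenchyme, was the member that rose, with 10.67 and 10.66 at day 9, against 9.78 and 9.76 at day 6.

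Homeobox genes of the Hox clusters, which pattern the body axis, moved in both directions. Of 13 tested in a list that also holds Meis1, 4 were higher and 7 were lower (median -0.82, and -0.46 at the bound). The 4 Hoxb genes of the list that were tested, Hoxb2, Hoxb4, Hoxb5 and Hoxb7, were all lower and not detected at day 9, at least 1.95-fold, 1.72-fold, 1.38-fold and 1.12-fold. Hoxa10 was at 11.69 and 11.72 at day 9, against 10.14 and 10.30 at day 6, and Hoxd10 at 9.26 and 9.26 at day 9, against 7.52 and 8.00 at day 6. Hoxc6 changed by 0.82 ± 0.17. Without background correction 2 were higher and 5 lower. Among genes detected in at least 2 groups, 4 were higher and 4 lower (median -0.076).

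**Figure D4:**
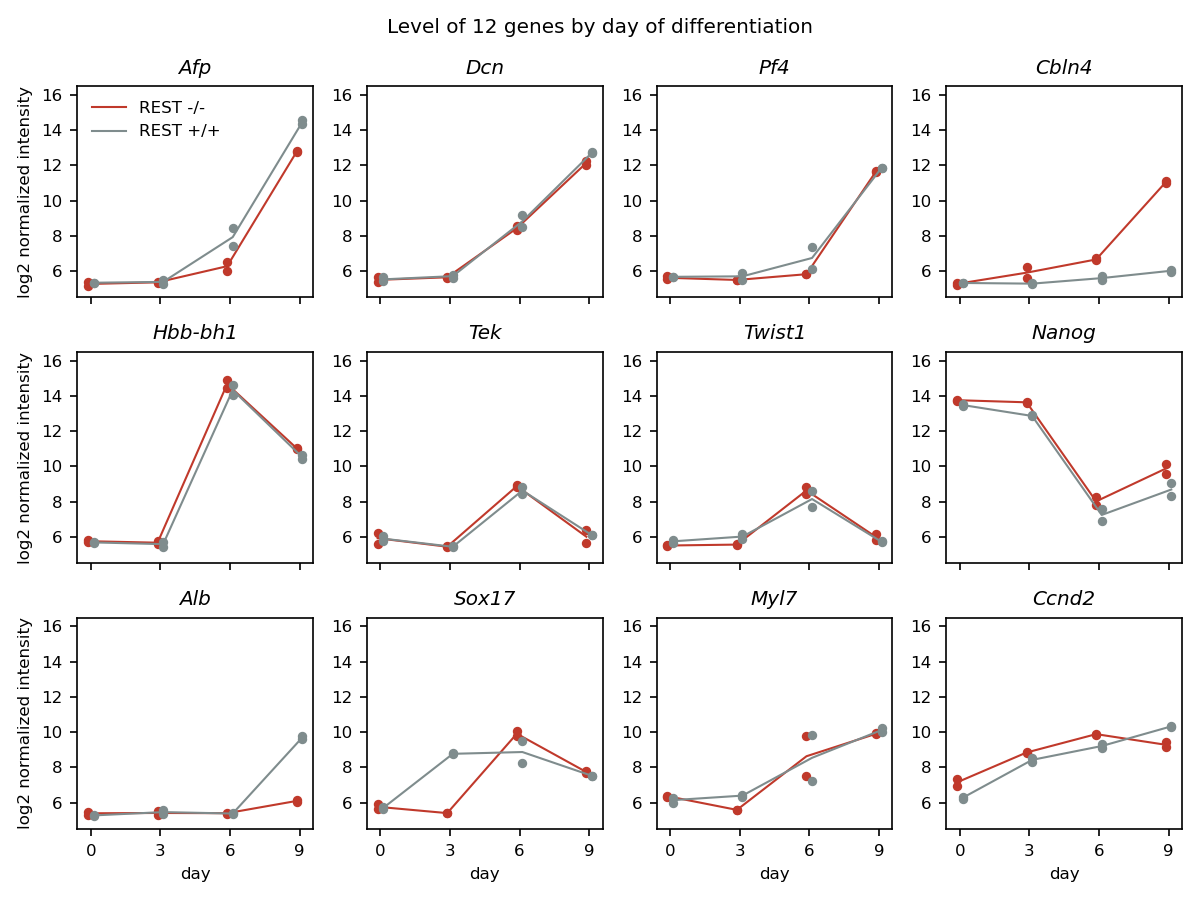
Log2 normalized intensity (y axis) of 12 genes by day of differentiation (x axis, days 0, 3, 6 and 9), with 1 point per array and lines through the group means for REST -/- and REST +/+ cells. Afp, Dcn and Pf4 rise late in both genotypes, Cbln4 is high at day 9 in REST -/- cells, Hbb-bh1, Tek and Twist1 peak at day 6, and Nanog lies higher at day 9 than at day 6 and below its day 0 level.

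Imprinted genes moved in both directions. Of 23 tested, 7 were higher and 6 were lower, with a median of 0.044, which was -0.16 under median centring, with 6 higher and 9 lower. Igf2, the fetal growth factor, had the brightest probe on all KO day 9 and day 6 arrays, with intensities of 70291 and 69794 in day 9 bodies, against 67439 and 67520 in day 6 bodies, and quantile normalization sets equal ranks to equal values, so it gave no test. Beside it, Phlda2, which restrains placental growth, was at 8.08 and 8.55 at day 9, against 10.93 and 10.62 at day 6, and Cdkn1c, a cell cycle inhibitor, at 8.93 and 8.73 at day 9, against 10.02 and 10.28 at day 6. Slc38a4, an amino acid transporter, changed by -1.24 ± 0.14 and Mest by -0.83 ± 0.13. Cd81, a membrane tetraspanin, changed by 1.12 ± 0.16 and Gnas, a G protein subunit, by 1.11 ± 0.21.

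Wnt ligands, receptors and antagonists were mostly higher at day 9. Of 18 tested, 11 were higher and 1 was lower, with a median of 0.64 (0.59 at the bound). Without background correction the counts were 7 and 0, and under median centring they were 9 and 3. Of the ligands, Wnt5b was at 9.10 and 9.08 in day 9 bodies, against 5.98 and 6.11 and no detection in day 6 bodies, at least 5.40-fold higher (adjusted p = 1.25e-08), and Wnt2 was at 11.01 and 10.75 at day 9, against 9.98 and 10.11 at day 6. Of the receptors, Fzd1 changed by 1.11 ± 0.26, a call lost without KO day 9 replicate 1 (0.92). Of the antagonists, Sfrp2 was at 10.09 and 10.12 at day 9, against 7.69 and 7.73 at day 6, Dkk2 at 11.09 and 10.78 at day 9, against 8.90 and 9.22 at day 6, and Sfrp1 and Dkk3 changed by 1.62 ± 0.26 and 1.17 ± 0.14. Frzb, given above, was the antagonist that fell. The target genes Axin2 and Sp5, which canonical Wnt signalling switches on, did not pass the test, with 7.60 and 7.73 for Axin2 at day 9, against 8.12 and 7.93 at day 6, and 6.75 and 6.47 for Sp5 at day 9, against 7.63 and 7.28 at day 6. Under median centring both were called lower (adjusted p = 0.010 for Axin2 and 0.024 for Sp5), and Sp5 was also called lower with an offset of 50 and in fits of the 8 KO arrays or of the arrays compared (adjusted p = 0.049, 0.016 and 0.0087).

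In the BMP, nodal and TGF-beta list 6 of 22 were higher and 7 lower (median 0.21, and 0 at the bound). Without KO day 6 replicate 1 there were 4 higher and 3 lower, and without KO day 6 replicate 2 or KO day 9 replicate 2 there were 6 higher and 3 lower. Of the members called lower, Msx1 was at 9.51 and 9.75 at day 9, against 11.29 and 11.14 at day 6, Msx2 at 7.05 and 6.79 at day 9, against 8.21 and 8.13 at day 6, and Id1 at 7.31 and 7.38 at day 9, against 8.32 and 8.34 at day 6. On the TGF-beta side, Tgfbi, a matrix protein that TGF-beta induces, was at 11.38 and 11.23 at day 9, against 10.04 and 10.16 at day 6.

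Genes of replication and mitosis were lower or did not pass the test. Of 36 replication and mitosis genes, 0 were higher and 16 were lower (median -0.44), and 34 of the 36 had a negative change. The count of lower genes was 26 under median centring, and 9 without KO day 6 replicate 1 or without KO day 6 replicate 2. Cdc6, which loads the replicative helicase, was at 9.56 and 9.43 at day 9, against 10.61 and 10.64 at day 6. Mcm5, a subunit of that helicase, was at 9.67 and 9.57 at day 9, against 10.47 and 10.46 at day 6, and Uhrf1, which maintains DNA methylation at replication, at 11.21 and 11.16 at day 9, against 12.21 and 12.01 at day 6. The days did not overlap in any of the 3. A second kept probe of Cdc6 changed by -0.28 (unadjusted p = 0.10 in limma's moderated test), against -1.13 for the probe given. Plk1, a mitotic kinase, changed by -0.50 ± 0.12, with no call without KO day 6 replicate 2 (-0.45), while Cdk1 was at 9.18 and 9.19 at day 9, against 9.47 and 9.28 at day 6 (adjusted p = 0.345). In the G1 list of cyclins and inhibitors 2 of 15 were higher and 3 lower (median -0.25). Its share of calls was 33.3%, near the 35.2% of all genes. Under median centring 1 was higher and 7 lower, without KO day 6 replicate 2 these were 1 and 2, and without KO day 9 replicate 1 they were 2 and 1. Cdkn1c had the largest change of that list, and Cdkn2b, a kinase inhibitor, rose at least 1.25-fold. Ccnd2, a D-type cyclin, was at 9.13 and 9.44 at day 9, against 9.86 and 9.92 at day 6, and lost its call without KO day 6 replicate 2 (-0.57) or KO day 9 replicate 1 (-0.45).

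Cholesterol synthesis genes were mostly lower. Of 19 cholesterol and fatty acid synthesis genes, 0 were higher and 13 were lower (median -0.57). Without KO day 9 replicate 2, 7 were lower. Idi1, an enzyme of the isoprenoid branch, was at 11.76 and 11.70 in day 9 bodies, against 12.78 and 12.88 in day 6 bodies. Lss, which closes the sterol rings, was at 7.22 and 7.10 at day 9, against 8.19 and 8.32 at day 6, and Fdps, which makes farnesyl diphosphate, changed by -0.85 ± 0.16. Of 21 glycolysis and hypoxia genes 2 were higher and 7 were lower (median -0.026). Their share of calls was 42.9%, beside 35.2% of all genes. The glucose transporters led the falls: Slc2a1 (Glut1) was at 10.28 and 10.04 at day 9, against 12.33 and 12.42 at day 6, and Slc2a3 (Glut3) at 10.65 and 10.71 at day 9, against 12.61 and 12.38 at day 6. Pdk1, which keeps pyruvate out of mitochondria, changed by -1.23 ± 0.19, Pkm (pyruvate kinase) by -0.80 ± 0.16 and Ldha (lactate dehydrogenase) by -0.67 ± 0.13. P4ha1, a collagen prolyl hydroxylase that hypoxia also induces, rose, with 7.73 and 7.64 at day 9, against 5.91 and 6.59 at day 6.

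The respiratory chain and the ribosome had few called genes. Of 35 respiratory chain genes 1 was higher and 1 lower (median -0.033), and under median centring 0 were higher and 6 lower. The lower one was Cycs (cytochrome c), with 10.00 and 9.77 at day 9, against 10.63 and 10.82 at day 6. The higher one, Cox6c, lost its call when any of the 4 KO arrays was left out (changes of 0.38 to 0.40). Of 31 cytosolic ribosomal protein genes 6 were higher and 1 lower (median 0.11), but this direction turned under median centring, with 0 higher, 2 lower and a median of -0.14, leaving out any of the 4 KO arrays left 2 higher, and a fit of the 4 KO arrays alone left 3 higher. Both lists had a low share of calls beside the 35.2% of all genes.

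Control bodies went through most of the same changes over the same days. In the control arrays 2092 genes (27.9%) were called, 1049 higher (14%) and 1043 lower (13.9%). In both genotypes 1565 genes were called in the same direction, which is 59.2% of the genes called in KO and 74.8% of those called in control. Of the genes called in KO, 95.2% had the same sign in control. The correlation of the changes over all genes was 0.844 (Pearson) and 0.790 (Spearman), a description across genes, which are not independent, from arrays that the genotypes do not share. The median absolute change was 0.32 in KO and 0.29 in control. Of the 30 matrix genes 24 were higher in KO, against 26 in control. Of the 11 tested genes of the white blood cell list 8 were higher in KO, against 9 in control. Of the 18 red cell genes 13 were lower in KO, against 13 in control, and of the 16 vessel genes 13 were lower in KO, against 13 in control. Other lists had less similar counts. Of the 21 glycolysis and hypoxia genes 2 were higher and 7 lower in KO, against 7 higher and 3 lower in control. Of the 19 cholesterol and fatty acid synthesis genes 13 were lower in KO, against 7 in control. The test of the difference, given below, called 1 of those 21 genes and 0 of those 19. Afp changed by 6.50 in KO and 6.52 in control, Col1a2 by 3.04 in KO and 3.33 in control, and Hbb-bh1 by -3.64 in KO and -3.81 in control.

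The test of the difference between the genotypes' changes, an interaction term in the same fit, called 73 genes (0.973%), 27 with a more positive change in KO (0.36%) and 46 with a more negative one (0.613%). At an unadjusted p under 0.05 there were 692. The count depended on the arrays and on the background correction: it was 167 without control day 6 replicate 2, 45 without control day 9 replicate 2, 47 without control day 9 replicate 1 and 12 without background correction. Of the 73, 52 draw on a group in which the gene was not detected, so that the size of their difference is not a bound, and 21 were detected in all 4 groups.

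Plasma protein and liver genes led the negative differences. Of the 15 tested, 7 had a more negative change in KO, and 9 were called higher in KO bodies, against 12 in control bodies. Of the 4 groups, Alb was detected in control day 9 bodies alone: it was at 6.15 and 6.04 in KO day 9 bodies and 5.43 and 5.38 in KO day 6 bodies, against 9.78 and 9.61 in control day 9 bodies and 5.43 and 5.34 in control day 6 bodies. It rose at least 8.81-fold in control (difference of changes -3.62 ± 0.19, adjusted p = 1.07e-07). Fgb was at 7.44 and 7.51 in KO day 9 bodies and 7.17 and 7.16 in KO day 6 bodies, against 9.53 and 9.41 in control day 9 bodies and 5.73 and 6.28 in control day 6 bodies (adjusted p of the difference = 1.85e-06). In KO bodies Fgb was thus detected on both days and its change did not pass the test, whereas in control bodies it was detected only at day 9. Ambp, Itih2 (an inter-alpha-trypsin inhibitor chain), Apoa2, Trf (transferrin) and Kng1 (kininogen) had differences of -2.39 ± 0.19, -2.50 ± 0.18, -2.28 ± 0.23, -1.86 ± 0.26 and -1.58 ± 0.21. Over all settings the KO change itself ran from 0.43 to 5.00 for Alb, 0.74 to 3.92 for Itih2 and 0.85 to 4.68 for Apoa2. It ran from 1.27 to 3.26 for Ambp and 0.45 to 2.22 for Trf. The range was narrower for Fgb (0.12 to 0.34) and Kng1 (-0.041 to 0.42). The size of the KO change in the wide-ranging genes thus depended on the processing. Afp, in contrast, had log2 changes of 6.50 in KO and 6.52 in control (difference -0.02 ± 0.36, adjusted p = 0.994). Tdo2 fell in both genotypes and further in KO (difference -1.89 ± 0.24).

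Hhex, the early liver factor, had a difference of -1.41 ± 0.25 (adjusted p = 0.012), and Foxf2, a factor of gut mesenchyme, was at 7.65 and 7.68 in KO day 9 bodies and 9.06 and 8.69 in KO day 6 bodies, against 9.94 and 9.80 in control day 9 bodies and 9.26 and 9.87 in control day 6 bodies (difference -1.51 ± 0.26). Reln (reelin), an extracellular guidance protein, fell in both genotypes and further in KO, with log2 changes of -2.50 in KO and -0.65 in control. Ccnd2 ran in opposite directions, with changes of -0.60 in KO and 1.12 in control (difference -1.72 ± 0.23, adjusted p = 0.000913). So did 6 other genes called in both genotypes. Among them H2-K1 changed by -0.34 in KO and 0.94 in control, Rgn (regucalcin) by -0.70 in KO and 1.03 in control, and Hnf4a, a central liver transcription factor, was at least 1.10-fold lower in KO and at least 1.16-fold higher in control, although for Hnf4a the difference itself did not pass (adjusted p = 0.0663). Bex2, Ndufaf3 and Nepn rose in KO and fell in control, but with the mean of its detected probes Bex2 changed by -0.011 in KO. These were named after their values were seen. The KO calls of Bex2, H2-K1 and Hnf4a were lost when any of the 4 KO arrays was left out, that of Ccnd2 as given above, and that of Rgn without KO day 6 replicate 1 (-0.79), KO day 6 replicate 2 (-0.60) or KO day 9 replicate 1 (-0.23).

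Cbln4, Vstm2l, Dner and Resp18 were 4 of the 10 largest positive differences. All are on the list of REST targets, which was chosen with earlier results of these data known. Of the 38 targets tested, 7 had a more positive change in KO and 3 a more negative one, and 17 were called higher and 5 lower in KO bodies, against 3 higher and 4 lower in control bodies. Cbln4 was not detected in control at day 9 (5.97 and 6.07) or day 6 (5.70 and 5.50), so that its difference of 3.96 ± 0.24 (adjusted p = 3.64e-07) rests on the KO arrays. The same held for Dner (difference 1.94 ± 0.22), Resp18 (1.86 ± 0.22) and Scg2 (1.51 ± 0.18). Vstm2l was at 5.92 and 5.75 in control day 9 bodies and not detected, against 6.69 and 6.02 in control day 6 bodies, where 1 of 2 arrays detected it. Ghrl (ghrelin) and Gal (galanin), peptide hormones, rose in KO from below detection, at least 1.96-fold and at least 2.07-fold, and Sez6l2, a neuronal membrane protein, was at 9.23 and 9.23 in KO day 9 bodies, against 7.57 and 7.54 in KO day 6 bodies, and was not detected in control. Cpne4 and Fam155a rose at least 2.43-fold and at least 4.72-fold. The difference for Fam155a changed sign without background correction. On the negative side Vgf, Nefm and Ina had differences of -1.74 ± 0.25, -1.37 ± 0.22 and -1.10 ± 0.22, since they fell in KO bodies and were not detected in control at either day. The Ina difference was 0.53 and not called without background correction.

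**Figure D5:**
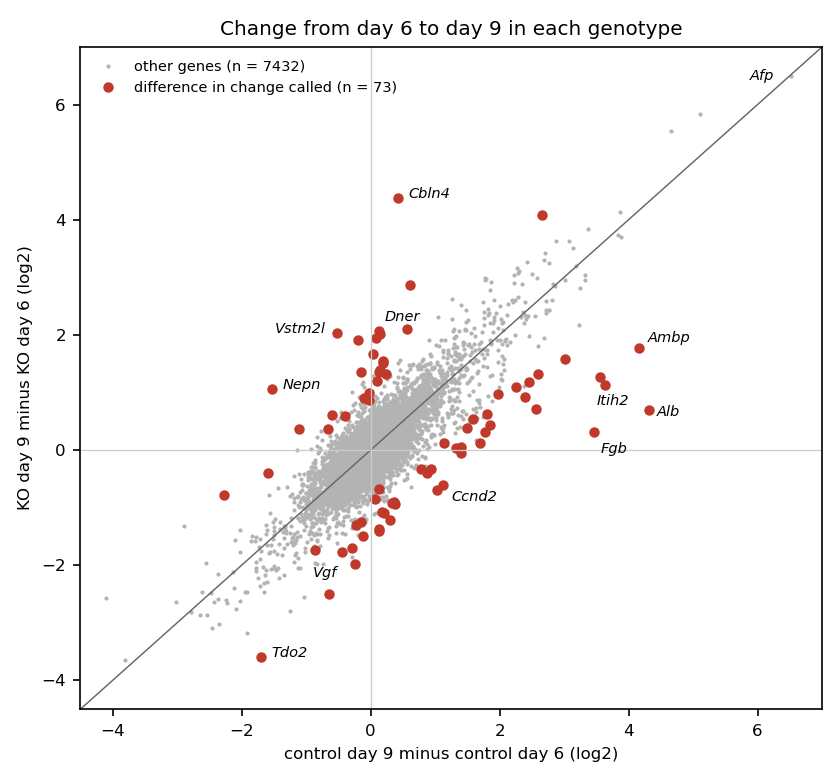
Log2 change from day 6 to day 9 in KO bodies (y axis, KO day 9 minus KO day 6) against the change in control bodies (x axis, control day 9 minus control day 6), 1 point per gene for 7505 genes, with the line of equal change. The 73 genes whose difference was called are in red, among them Cbln4, Dner and Vstm2l above the line and Alb, Fgb, Ambp and Itih2 below it, while Afp lies close to it at 6.50 in KO and 6.52 in control.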

How the data were processed

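RNA from mouse embryonic stem cells and embryoid bodies was extracted with Trizol and hybridised as biotin-labelled cRNA to Illumina bead arrays, per the labels' protocols. The deposited table used here holds a probe intensity that the authors did not normalize and a detection p-value for each probe and array, per the file headers. The scanner software is not stated there. A second deposited table, with the authors' normalized intensity, served as an alternative, with its normalization method not stated.

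From these values, neqc of limma 3.58.1 (R 4.3.3, statmod 1.5.0) corrected the background from detection p-values based on 798 negative control probes, added an offset of 16, quantile-normalized the 16 arrays and took log2. Differences are thus on the log2(value + 16) scale and understate the change of dim genes. Of 25697 probes, 10241 had a detection p-value below 0.01 on both arrays of at least 1 of 8 groups, and 614 of these have no gene name here. The brightest such probe stood for each of 7505 genes. Of 597 called genes with several kept probes, 47 had probes of opposite sign. The number of arrays limits the precision.

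One limma fit with a mean per genotype and day over all 16 arrays gave each contrast, with Benjamini-Hochberg adjustment over all 7505 genes and a threshold of 0.05. Data for KO day 9 minus KO day 6 over 7505 genes were also simulated. Of 68 genes changed by 0.5 log2 units 25% were called, of 66 changed by 1 81.8%, and of 66 changed by 2 100%, with 6 false calls. All other genes were simulated without change between the days, whereas 35.2% of genes were called in the data. The adjustment depends on that share, so these rates need not hold for the data.

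Named genes are the 15 largest rises and 15 largest falls among called genes, up to 6 members with the largest change in each of 34 lists with defining members given as values, and the 10 largest called differences between genotypes in each direction. Others were named after their values were seen. The comparison, its members and the lists were chosen with earlier results of these data known. A gene's bound compares the brighter day's mean with, on each array of the dim day, the higher of its own value and the lowest detected value. Promoters and gene names came from RefSeq tables. Alternatives changed the background correction, normalization, probe filter, probe choice, arrays in the fit, replicate block, offset and threshold.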

Additional observations from a re-analysis of the deposited data

Results flagged for a closer look

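The change from day 6 to day 9 differed between KO and control for 73 genes, by limma's test of the interaction term with Benjamini-Hochberg adjustment. The values below are the KO change minus the control change on the log2 scale, with 2 arrays in each of 4 groups. Where a gene was not detected in a group, its value is a fitted one and no bound.

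More positive changes in KO were found for the neuronal and secretory genes Cbln4 (3.96), Vstm2l (2.56), Dner (1.94), Resp18 (1.86), Scg2 (1.51), Sez6l2 (1.64), Cpne4 (1.87) and Fam155a (2.26). The same held for the peptide hormones Ghrl (2.12) and Gal (1.54), for Nepn (2.58), Bex2 (1.48) and Ndufaf3 (1.21), and for the chemokine Ccl4 (1.44).

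More negative changes in KO were found for the liver and plasma genes Alb (-3.62), Fgb (-3.16), Itih2 (-2.50), Ambp (-2.39), Apoa2 (-2.28), Tdo2 (-1.89), Trf (-1.86), Rgn (-1.73) and Kng1 (-1.58). The transcription factors Foxf2 (-1.51), Hhex (-1.41) and Hoxb4 (-1.06) had negative values, as had Reln (-1.85), Ccnd2 (-1.72), H2-K1 (-1.28) and Ldha (-0.80). So had the neuronal genes Vgf (-1.74), Nefm (-1.37), Ina (-1.10) and Fabp7 (-1.01).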

How the results depend on the processing

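Leaving out 1 array at a time gave 1705 to 2014 called genes for KO, 1136 to 1949 for control and 45 to 167 for the difference between genotypes, against 2643, 2092 and 73 as reported. The difference had 12 called genes without background correction (7 of them among the 73), 12 with the authors' normalized values, 44 among genes detected in at least 2 groups and 46 in a fit of the arrays compared. Median centring gave 3307 called genes in control, 553 higher and 2754 lower. A test against a 1.5-fold change called 493 genes in KO, 345 in control and 20 for the difference. Same-numbered arrays at day 9 and day 6 had deviations that correlated at 0.144 in KO and -0.078 in control, so the numbers were not taken as a pairing. With the replicate number as a block the counts were 2486, 1931 and 60; this block moved no count of called genes by over 1.5 times. Of the 73 called differences, 6 changed sign without background correction and 6 with the authors' values, and 7 were called again in each. Among the genes named here, the Fam155a difference reversed to -1.997 without background correction and -2.01 with the authors' values (adjusted p = 0.176 and 0.174), and the Ina difference to 0.53 under both. The change of Bex2 reversed to -0.011 with the mean of its detected probes. Genes that had not passed the test changed sign near 0: under median centring Pou5f1 was at -0.030 and Spi1 at -0.061, and with 1 array left out Pax6 ranged from -0.068 to 0.30, Kng1 from -0.041 to 0.28 and Pou5f1 from -0.093 to 0.18. Of 187 genes named here that were called in KO, 104 kept sign and call in each of the 16 settings that tested them. A gene that a probe filter removed was left out of that setting. Of 34 lists, the median kept its sign in 22 and the count of calls stayed within 1.5 times in 12. The cause of these shifts was not tested. The number of arrays limits small changes, and genes near background have bounds only.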

Other observations

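Stress and early response genes also changed in KO bodies, where 35.2% of all genes were called. In the list of amino acid stress response genes, 6 of 24 were higher and 6 lower (median -0.11, and 0 at the bound). Psat1, an enzyme of serine synthesis, was at 8.22 and 8.15 at day 9, against 9.62 and 9.71 at day 6, and Asns, which makes asparagine, changed by -0.74 ± 0.15. Cebpb, a transcription factor of stress and of macrophages, was at 8.68 and 8.65 at day 9, against 6.81 and 7.22 at day 6, and Nupr1 was at least 2.39-fold higher. Without KO day 6 replicate 2 the list had 5 higher and 3 lower genes. Of 10 immediate early genes 1 was higher and 5 were lower (median -0.25). Myc was at 7.43 and 7.51 at day 9, against 8.83 and 8.93 at day 6, and Fos changed by -0.77 ± 0.17.

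Of 19 p53 and apoptosis genes 1 was higher and 1 lower (median -0.22, and -0.11 at the bound), and under median centring 4 were lower. Fas, a death receptor, was at 8.82 and 9.04 at day 9, against 6.53 and 6.70 at day 6. The kept probes of Fas changed by 2.31, 1.36 and 1.36 on the log2 scale. Of 14 genes of mitochondrial and protein-folding stress 2 were higher and 4 lower (median -0.062), and the count of called genes was 1 to 3 when any KO array was left out. Herpud1, which acts in the breakdown of misfolded proteins, changed by 1.20 ± 0.15. Of 9 trophoblast genes 2 were higher and 5 lower (median -0.51), with 1 and 1 without background correction. Esx1, a placental homeobox factor, was at least 2.69-fold lower, while the trophoblast markers Tpbpa and Krt7 were not detected. Of 3 skeletal muscle genes tested 0 were called (median -0.11, and 0 at the bound), and 1 was lower under median centring.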
